A study of Mus musculus with 8 samples.

Results

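The 5 transcription regulators *Sohlh2*, *Dmrtb1*, *Nobox*, *Tbx1* and *Cited1* were followed through early spermatogonial differentiation in the mouse. They were picked by name because their mRNA levels rose between undifferentiated and differentiating spermatogonia in these same libraries, so each rise is given as a description and no p value is given for it. The calls that the fit over the whole table made on them are only counted. They are 5 of the 5736 genes in the expression table.

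Expression was measured by bulk RNA-seq of EGFP-positive germ cells sorted from testes with synchronized spermatogenesis, in 8 libraries. The groups were Aal (undifferentiated spermatogonia, 2 libraries), A1 (spermatogonia at the onset of differentiation, 3 libraries) and A3 (spermatogonia midway through differentiation, 3 libraries). The question was when, between Aal and A1 or between A1 and A3, each mRNA rose. The mice carried the Uchl1-eGfp transgene, in which the *Uchl1* promoter drives EGFP, on a C57BL/6 background outcrossed to CD-1. Pups were given bis-(dichloroacetyl)-diamine, an inhibitor of retinoic acid (RA) synthesis, by mouth at 100 µg/g of body weight. On postnatal day 11 RA was injected once under the skin, in a volume of 10 µl and at a concentration of 10 µg/µl. The labels give this protocol for all samples alike and do not say whether the mice used for Aal had received RA. The series design places undifferentiated cells before the injection and A1 about a day after it. Cells were pooled from several animals for each preparation, and the timeline of the study takes these groups from pups. Testes so treated are synchronized in a way that normal testes are not.

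Differentiating spermatogonia are the germ cells that leave the stem and progenitor pool in response to RA, divide several times and then enter meiosis. SOHLH2 is a basic helix-loop-helix (bHLH) factor of the germ line that binds E-boxes (CANNTG) and is required for normal spermatogonial differentiation. DMRTB1, also called DMRT6, is a DM domain factor that acts in the passage from spermatogonia to meiosis. NOBOX is a homeobox factor best known from oocytes, TBX1 is a T-box factor best known from development of the pharynx and heart, and CITED1 is a co-regulator without a DNA-binding domain that works with CBP/p300.

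All 5 genes have a position in the GENCODE M1 annotation of mm9, and none overlaps another annotated gene there. *Sohlh2* (ENSMUSG00000027794.4) lies on the plus strand of chromosome 3 from 54985950 to 55013879. *Dmrtb1* (ENSMUSG00000028610.10) lies on the minus strand of chromosome 4 from 107348895 to 107356835. *Nobox* (ENSMUSG00000029736.8) lies on the minus strand of chromosome 6 from 43253673 to 43259561. *Tbx1* (ENSMUSG00000009097.8) lies on the minus strand of chromosome 16 from 18581806 to 18588113. *Cited1* (ENSMUSG00000051159.10) lies on the minus strand of chromosome X from 99442720 to 99447520.

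Because SOHLH2 binds E-boxes and is itself a member, the 250 bases before each annotated start were searched for CANNTG on both strands, using RefSeq promoters of build GRCm38.p6. All 5 genes matched the promoter table, with 9 windows between them. An E-box stood in 7 of the 9 windows and in at least 1 window of all 5 genes, against 66.2% of all 32851 promoter windows of that length, so the motif is common. Some windows lie in exons of the mm9 annotation. The *Dmrtb1* window with 3 E-boxes lies wholly in coding sequence of *Dmrtb1*. The *Cited1* windows with an E-box hold 170 and 128 exon bases, and the *Cited1* window without exon bases holds 0 E-boxes. The stretches below were found by exact match in mm9, run from 5′ to 3′ on the gene's strand and carry the E-boxes in capitals. They are shown for *Sohlh2*, the bHLH gene itself, for *Nobox*, and for *Dmrtb1*, the gene that rose latest. The regions are chr3:54985716-54985949 (plus strand), chr6:43259562-43259803 (minus strand) and chr4:107356836-107357085 (minus strand).
Sohlh2: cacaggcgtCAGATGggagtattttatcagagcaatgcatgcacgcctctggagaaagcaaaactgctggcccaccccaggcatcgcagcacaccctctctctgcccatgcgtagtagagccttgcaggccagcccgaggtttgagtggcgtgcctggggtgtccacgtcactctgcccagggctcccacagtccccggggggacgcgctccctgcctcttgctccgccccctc
Nobox: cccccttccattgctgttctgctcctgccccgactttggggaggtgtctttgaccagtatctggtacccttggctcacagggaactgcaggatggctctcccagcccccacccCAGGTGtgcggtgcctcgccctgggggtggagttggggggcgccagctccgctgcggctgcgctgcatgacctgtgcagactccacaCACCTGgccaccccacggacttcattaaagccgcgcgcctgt
Dmrtb1: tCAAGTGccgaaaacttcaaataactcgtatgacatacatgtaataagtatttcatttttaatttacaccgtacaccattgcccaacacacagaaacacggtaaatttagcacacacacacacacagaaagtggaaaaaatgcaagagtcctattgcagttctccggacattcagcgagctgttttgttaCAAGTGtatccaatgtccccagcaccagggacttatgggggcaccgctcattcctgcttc
The *Sohlh2* stretch holds 1 E-box and the other stretches hold 2 each. The letters AGGTCA, which RA receptors recognise, stood in 2 of the 9 windows (1 of *Nobox*, 1 of *Cited1*) and in 14.0% of all promoters. The homeobox letters TAATTA and TAATTG, the T-box letters AGGTGTGA, the DM domain letters ACATTGT and the DR5 motif of RA receptors (AGGTCA repeated directly after a spacer) stood in 0 of the 9 windows. They stood in 4.84%, 7.17%, 1.12%, 2.56% and 0.00913% of all promoters, in that order. A match is a description of letters and not a bound site.

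The rows of the expression table are not an unselected transcriptome. Genes whose group means differed by 0.35 to 0.5 on the log2 scale were almost absent for the adjacent stages: 4 genes for A1 over Aal and 0 for A3 over A1. The same band held 509 genes for A3 over Aal and 549 genes for the ratio of A1-1 over A1-2, libraries of 1 group. The neighbouring band from 0.2 to 0.35 held 911 genes for A1 over Aal and 1029 for A3 over A1. The rows also stand in only 77 runs of 1 step pattern (up, flat or down in each step, divided at 0.45 on the log2 scale), the longest of 642 genes. The table is therefore in part a selection on the size of the same steps that are compared here. Its rule is not given in the sources used here, and step size alone does not account for it. The listed genes *Kit*, *Stra8*, *Zbtb16* and *Tcl1* are absent, though the authors reported changes in them at the onset of differentiation. Shares of genes called, medians and adjusted p values below describe that selection and cannot be read as those of all genes, while the values of a named gene in each library do not depend on it.

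Recovered library totals ran from 18276164 to 27316451 reads, and the genes of the table held 34 to 34.4% of them. *Uchl1*, whose promoter drives the EGFP used for sorting, had mean levels of 4860.1, 5458.6 and 5587.1 FPKM (fragments per kilobase of gene, scaled to library size) in Aal, A1 and A3, with SDs of 519, 1648 and 316 over 2, 3 and 3 libraries, and passed the test in no comparison. Of 15 germ cell markers 4 were in the table and none was at 0. Of 28 Sertoli cell markers 16 were in the table and none was at 0. Their summed level was 56.5 and 43.9 FPKM in Aal, 66.8, 64.5 and 436 in A1 and 422, 308 and 227 in A3, so A1-3 stood with the A3 libraries and apart from the other A1 libraries. Summed Leydig (3 of 8 markers), peritubular myoid (3 of 7) and macrophage (3 of 8) markers were also highest in A1-3, at 8.39, 6.53 and 10.2 FPKM. Endothelial markers (5 of 8) ran from 8.8 to 10.4 FPKM in Aal, 7.09 to 9.15 in A1 and 3.56 to 4.53 in A3, and 0 of 7 red blood cell markers were in the table.

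*Sohlh2* rose early and then held its level. It stood at 32.7 and 34.9 FPKM in the Aal libraries, at 65.8, 81.6 and 79.9 in A1 and at 76.7, 83.3 and 76.5 in A3. Both Aal libraries lay below every other library, and the A1 and A3 libraries overlapped. The group means were 33.8 ± 1.53 (SD, n = 2), 75.8 ± 8.66 (SD, n = 3) and 78.8 ± 3.89 (SD, n = 3). A1 was 2.24-fold above Aal in mean FPKM, with a log2 fold change of 1.14 (SE 0.1) on the log2(FPKM + 1) scale used for every fold change here. A3 differed from A1 by 0.06 (SE 0.09), which is within its error. The authors had already reported an increase of *Sohlh2* mRNA at the onset of differentiation.

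*Tbx1* went from near the floor to a clear level at A1 and rose again by A3. Its FPKM was 1.42 and 0.388 in Aal, from 67 and 19 reads. It was 11.8, 19.7 and 17.8 in A1 and 26.1, 36.2 and 41.7 in A3. No library of a later stage overlapped one of an earlier stage. The group means were 0.906 ± 0.732 (SD, n = 2), 16.4 ± 4.12 (SD, n = 3) and 34.7 ± 7.93 (SD, n = 3). The log2 fold change was 3.22 (SE 0.28) for A1 against Aal and 1.04 (SE 0.21) for A3 against A1. The pseudocount of 1 FPKM weighs on the first of these, and the ratio of mean FPKM was 18.1. The Aal libraries differed 3.67-fold, with exact Poisson 95% intervals of 1.1 to 1.81 and 0.234 to 0.606 FPKM that do not meet. The intervals cover counting error only.

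*Nobox* rose in both steps at a lower level. It stood at 1.29 and 1.22 FPKM in Aal (59 and 58 reads), at 5.69, 9.24 and 8.09 in A1 and at 19.5, 20.5 and 21.8 in A3. The 3 groups did not overlap, and the Aal libraries were close to each other. The means were 1.26 ± 0.0497 (SD, n = 2), 7.68 ± 1.81 (SD, n = 3) and 20.6 ± 1.11 (SD, n = 3). The log2 fold change was 1.92 (SE 0.19) in the earlier step and 1.34 (SE 0.15) in the later one. As ratios of mean FPKM these steps were 6.11 and 2.68.

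*Cited1* followed the same course at a higher level. It stood at 4.8 and 2.88 FPKM in Aal, at 22.3, 21.6 and 26.1 in A1 and at 68.5, 66.3 and 79.2 in A3. Again no library overlapped one of another group. The means were 3.84 ± 1.35 (SD, n = 2), 23.3 ± 2.4 (SD, n = 3) and 71.3 ± 6.89 (SD, n = 3). The log2 fold change was 2.35 (SE 0.18) from Aal to A1 and 1.57 (SE 0.09) from A1 to A3. The ratios of mean FPKM were 6.08 and 3.06.

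*Dmrtb1* rose mainly in the later step. It stood at 11.7 and 2.4 FPKM in Aal, at 17.4, 13.3 and 11.7 in A1 and at 77.7, 81.1 and 97.8 in A3. The A3 libraries lay far above the rest, whereas the lowest A1 library was only 1.01-fold above the higher Aal library. The means were 7.03 ± 6.56 (SD, n = 2), 14.1 ± 2.9 (SD, n = 3) and 85.5 ± 10.8 (SD, n = 3). The log2 fold change was 2.52 (SE 0.14) in the later step, a ratio of mean FPKM of 6.04. In the earlier step it was 1.19 (SE 0.49), and it was 0.24 without Aal-2 and 2.14 without Aal-1, so the size of the earlier step rests on which Aal library is used. The Aal libraries held 506 and 108 reads, with exact Poisson 95% intervals of 10.7 to 12.7 and 1.97 to 2.89 FPKM. Of 4632 genes tested, 5 (0.108%), *Dmrtb1* included, differed at least as much between the Aal libraries as its 4.87-fold. For *Tbx1* the corresponding share was 0.281%, for *Cited1* 4.17%, for *Sohlh2* 66.3% and for *Nobox* 70.6%.

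**Figure D1:**
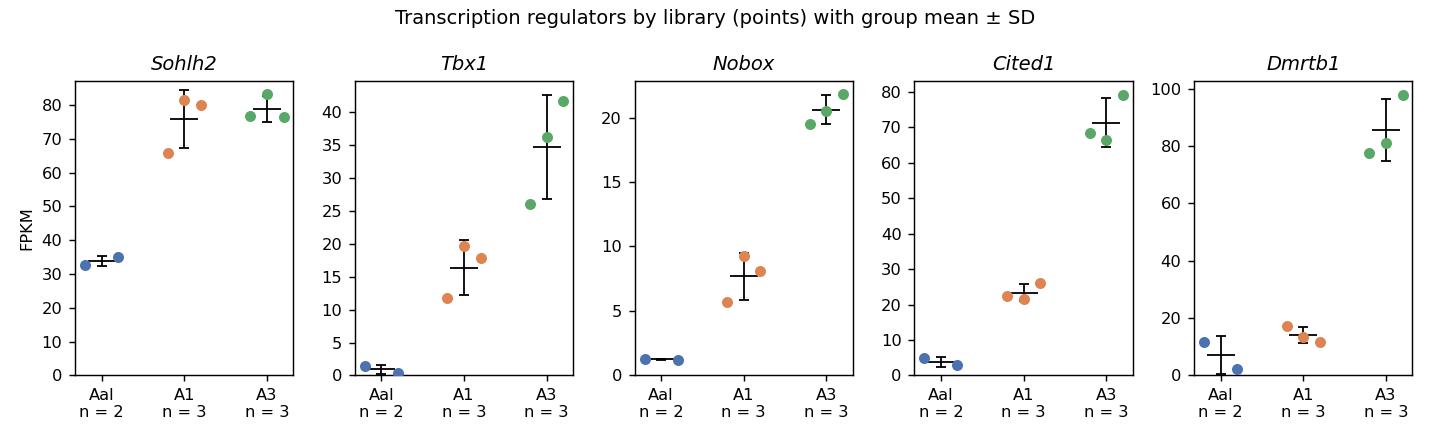
FPKM (vertical axes, each from 0) of the 5 regulators in every library, as points by group, with the group mean and SD as black bars. *Sohlh2* reached its A3 level at A1, *Dmrtb1* had its large step after A1, and the other genes rose in both steps.

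In bulk samples fewer cells expressing a gene and less RNA per cell cannot be told apart, which holds for all of these levels. The order of the levels changed with stage. *Sohlh2* was highest in Aal and A1, with no overlap with the next gene. In A3, *Dmrtb1*, *Sohlh2* and *Cited1* overlapped with their neighbours in that order, and *Tbx1* and then *Nobox* stood below them without overlap. FPKM is a value per length, but the annotation and the step to FPKM are not given in the sources used here. The order of levels between genes is therefore approximate.

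The net change from Aal to A3 was 1.2 (SE 0.07) for *Sohlh2*, 3.26 (SE 0.11) for *Nobox*, 3.71 (SE 0.44) for *Dmrtb1*, 3.93 (SE 0.16) for *Cited1* and 4.26 (SE 0.26) for *Tbx1*. The share of it reached at A1 sets the timing of the rises side by side. On the log2(FPKM + 1) scale the share was 94.9% for *Sohlh2*, between 90.2% and 103% when 1 library was left out. It was 75.6% (72.3% to 80.5%) for *Tbx1*, 60.0% (56.8% to 62.7%) for *Cited1* and 59.0% (54.9% to 64.4%) for *Nobox*. *Cited1* and *Nobox* thus did not differ beyond these ranges. *Dmrtb1* had the lowest share, 32.0%, with a wide range of 8.7% to 45.9%.

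The scale matters for the genes between these ends. On linear FPKM the share was 93.3% for *Sohlh2* and 9.07% for *Dmrtb1*, which kept the first and last places. Their ranges when 1 library was left out were 86.8% to 104% and 3.35% to 14.1%. The share was 33.2% (29.1% to 38.3%) for *Nobox* and 28.9% (26.9% to 30.7%) for *Cited1*, so that these genes gained most of their FPKM after A1 although their larger fold change came before it. For *Tbx1* it was 46.0%, with a range of 40.8% to 52.8% that includes equal gains before and after A1. The earlier log2 step minus the later one was 1.08 ± 0.15 (SE) for *Sohlh2*, 2.18 ± 0.46 for *Tbx1*, 0.78 ± 0.26 for *Cited1*, 0.58 ± 0.27 for *Nobox* and -1.33 ± 0.7 for *Dmrtb1*.

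**Figure D2:**
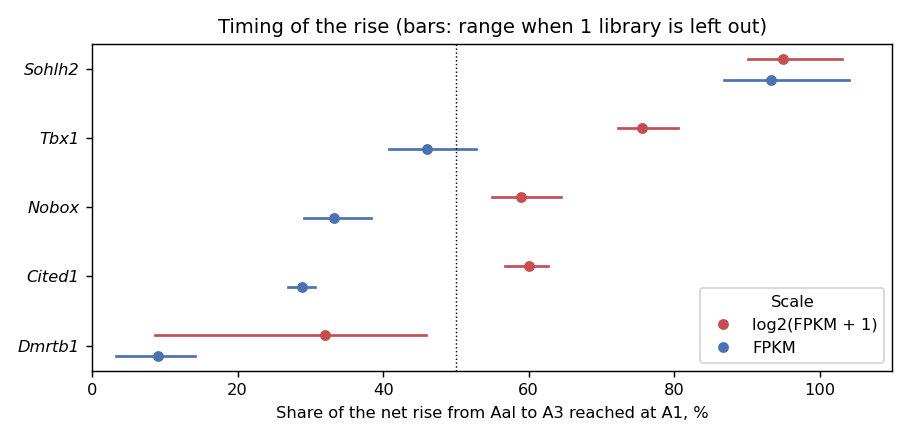
Share of the net rise from Aal to A3 that was reached at A1 (horizontal axis, %) for each regulator, on the log2(FPKM + 1) scale (red) and in FPKM (blue), with bars for the range when 1 library is left out and a dotted line at 50%. *Sohlh2* is highest and *Dmrtb1* lowest on both scales, and *Nobox* and *Cited1* lie above the line on the log2 scale and below it in FPKM, where the range of *Tbx1* crosses it.

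A gene was called where its log2 fold change was over 1 in size and its limma adjusted p was no higher than 0.01. In A1 against Aal 4 of the 5 regulators were called higher, all but *Dmrtb1*, and 0 lower, beside 4.19% higher and 4.97% lower of the 4632 genes tested in the table. In A3 against A1 3 were called higher (*Dmrtb1*, *Nobox* and *Cited1*), and 0 lower, beside 0.479% higher and 1.02% lower of 4590. In A3 against Aal all 5 were called higher and 0 lower, beside 7.87% higher and 9.69% lower of 4687. Every library of the later stage lay above every library of the earlier one for 5, 4 and 5 of the regulators, beside 34.6%, 18.0% and 38.9% of the genes tested. Every library of the later stage lay below for 0 of them, beside 29.4%, 20.1% and 34.2%. Nothing is read from these counts, since the regulators were chosen for these rises and the table was selected on the steps.

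**Figure D3:**
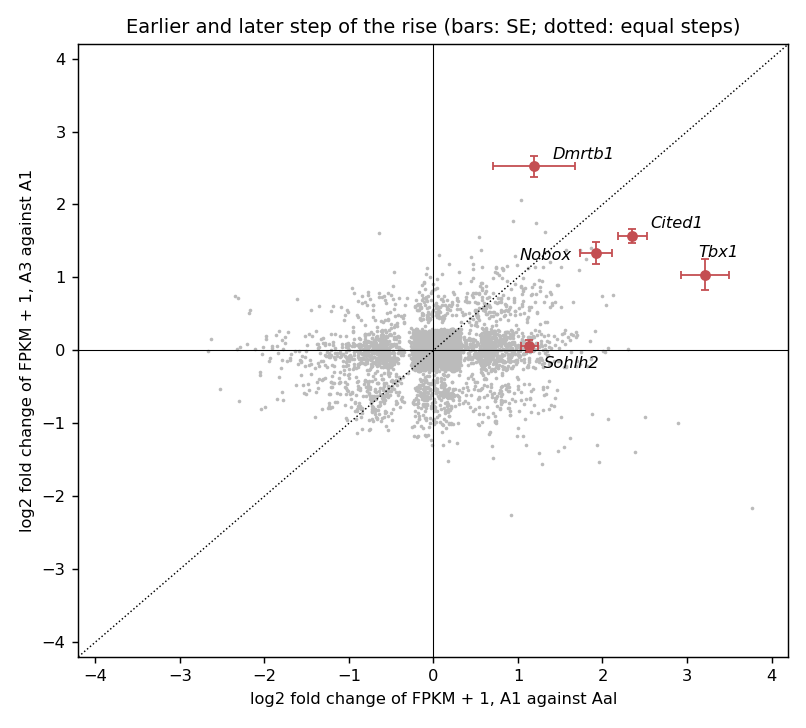
Log2 fold change of FPKM + 1 in A1 against Aal (horizontal) and in A3 against A1 (vertical) for the 4439 genes tested in both steps (grey) and the 5 regulators (red, bars for SE), with a dotted line for equal steps. Only *Dmrtb1* of the 5 lies above the line, and the thin bands in the grey points on either side of 0 are the step sizes that the table leaves out.

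Sertoli cell markers were called higher in the net comparison only. In A3 against Aal 11 of the 14 testable markers passed as higher and 1 as lower. In A1 against Aal 0 of 11 were called higher and 1 lower, and in A3 against A1 0 of 13 were called. Their summed level was nonetheless higher in every A1 library than in either Aal library, at 64.5 to 436 against 43.9 to 56.5 FPKM. In A3 it ran from 227 to 422 FPKM. With this spread within A1, the lack of calls in single steps does not show a lack of rise. All A3 libraries had high Sertoli sums, so leaving out 1 library does not separate the stage from that signal in A3. Within A3, A3-1 had the highest Sertoli sum and A3-3 the lowest. *Tbx1*, *Nobox* and *Dmrtb1* were lowest in A3-1 and highest in A3-3. *Cited1* was lowest in A3-2 and highest in A3-3, and *Sohlh2* was lowest in A3-3 and highest in A3-2. Without A1-3, the A1 library with a high Sertoli sum, the log2 fold changes of A1 against Aal were 1.09 for *Sohlh2*, 3.15 for *Tbx1*, 1.88 for *Nobox*, 2.28 for *Cited1* and 1.31 for *Dmrtb1*. Those of A3 against A1 were 0.1, 1.11, 1.38, 1.65 and 2.41 in the same order. The part of Sertoli cells in the rises was not tested.

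Among 3451 genes of the table with at least 5 FPKM in a library, those with the most similar course over the 8 libraries were found by the root mean square (RMS) difference of centred log2(FPKM + 1). For *Sohlh2* these were *Aurkb* (RMS 0.09, Pearson r = 0.983), *Kif2c* (0.1, 0.984) and *Cdca3* (0.1, 0.983). *Aurkb* had means of 25.9, 58.6 and 61.6 FPKM in Aal, A1 and A3. For *Nobox* the nearest were *Gadd45b* (0.31, 0.974), *Cited1* (0.34, 0.988) and *Slc27a2* (0.34, 0.973). *Gadd45b* had means of 2.32, 13.2 and 22.9 FPKM. For *Cited1* they were *Nobox*, *Tbx1* (0.42, 0.972) and *Gadd45b* (0.48, 0.977), and for *Tbx1* they were *Cited1*, *Nobox* (0.56, 0.971) and *Gadd45b* (0.58, 0.996). *Dmrtb1* had no neighbour as near: *Ap5b1* (0.61, 0.945), *Cited1* (0.64, 0.919) and *Mir6374* (0.68, 0.926). The points share libraries and group means, only genes of the selected table could be found, and the values are a description.

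Other genes were read from lists by function and family, 167 in all without the 5, mostly transcription regulators but also ligands, RNA-binding proteins and oocyte proteins, of which 62 were in the table and 55 were tested. Of these, 4 were called higher and 15 lower in A1 against Aal, 0 higher and 2 lower in A3 against A1, and 9 higher and 17 lower in A3 against Aal. Over all genes tested 9.15%, 1.5% and 17.6% were called in either direction, with medians of 0.03, 0.01 and 0.05 on the log2 scale. The lists were made with earlier results of these data known, so the counts, medians and p values given for them are descriptions.

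The authors had already reported that *Id4* and *Nanos2* mRNA declined in differentiating spermatogonia, and both are in the list that follows. Of 30 regulators of undifferentiated spermatogonia 14 were in the table. Of these, 10 were called lower and 0 higher in A1 against Aal (median log2 fold change -1.53), 0 in A3 against A1 (median 0.02) and 12 lower in A3 against Aal (median -1.63). *Nanos3*, an RNA-binding protein that keeps germ cells undifferentiated, fell from 102 ± 14.4 FPKM (SD, n = 2) to 15.5 ± 5.38 (SD, n = 3), a log2 fold change of -2.67 (limma adjusted p = 0.000286). *Id4*, an inhibitor of bHLH factors that marks stem cells, fell from 28.5 ± 5.28 to 6.73 ± 2.68 (-1.98, limma adjusted p = 0.00116). *Etv5*, an ETS factor downstream of GDNF signaling, fell from 44.8 ± 7.35 to 12.8 ± 3.77 (-1.75, limma adjusted p = 0.0007). Of the 4 not called in A1 against Aal, *Neurog3* stood at -0.9, *Utf1* and *Pax7* at -0.48 each and *Sox3* at 0.2. *Id4* overlaps A330033J07Rik on the other strand, as *Neurog3* does 2010107G23Rik, *Uchl1* does Gm16832 and *Slc27a2* does Gm16762. Whether counting used strand is not given in the sources used here.

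Regulators of differentiation, with 10 of 20 in the table, had 3 called higher and 1 lower of 8 in A1 against Aal (median 0.48), 0 higher and 2 lower in A3 against A1 (median -0.09) and 3 higher and 1 lower in A3 against Aal (median -0.03). *Foxm1*, a cell cycle factor, rose from 34.9 ± 0.303 FPKM (SD, n = 2) to 78.2 ± 4.82 (SD, n = 3) at A1, with a log2 fold change of 1.14 (limma adjusted p = 0.000136). It overlaps 4933413G19Rik on the same strand. *Foxn4*, a forkhead factor, and *Hoxb13*, a homeobox factor, had been listed with their changes known. They are 2 of the 3 called higher in A1 against Aal and both of those called lower in A3 against A1, so these counts were set by the choice of genes and nothing is read from them. The log2 fold changes of *Foxn4* were 3.77 and -2.15 in the earlier and the later step, and those of *Hoxb13* were 1.25 and -1.41. Of the meiotic regulators (6 of 24 in the table) 0 were called in any comparison, with medians of 0.03, -0.05 and -0.06. *Prdm9*, which sets the sites of meiotic recombination, was below the fold threshold in A1 against Aal, at a log2 fold change of 0.97 (limma adjusted p = 0.00443). *Sox30*, also listed as a meiotic regulator, was below the threshold in the other direction in A3 against Aal, at -0.96 (limma adjusted p = 0.000599).

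In the T-box family of *Tbx1* (5 of 16 other genes in the table) 2 of 4 tested were called lower and 0 higher in A1 against Aal (median -0.98), 0 of 3 were called in A3 against A1 (median 0.04), and 2 of 4 were called lower in A3 against Aal (median -0.96). The log2 fold changes of the others in A1 against Aal were -0.87 for *Tbx20* and -0.14 for *Tbx6*. *T*, the founding T-box gene, fell from 12.3 ± 2.46 FPKM (SD, n = 2) to 1.79 ± 0.944 (SD, n = 3), by 2.28 on the log2 scale (limma adjusted p = 0.000611). *Tbx3* fell from 8.33 ± 1.06 to 3.4 ± 0.134 (log2 fold change -1.08, limma adjusted p = 0.000593) and overlaps Gm2301 on the other strand.

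In the DM domain family (4 of 8 in the table) 0 of 2 were called in A1 against Aal (median 0.19), 0 of 3 in A3 against A1 (median 0.74) and 2 of 3 higher in A3 against Aal (median 1.49). Those 2 were *Dmrta1* (1.51, limma adjusted p = 0.000267) and *Dmrtc1a* (1.49, limma adjusted p = 0.000257). Both were higher in A1-3 than in the other A1 libraries, as the Sertoli sum was. *Dmrta1* stood at 3.3 FPKM in A1-3 and 0.4 in each other A1 library, and *Dmrtc1a* at 4.3 against 1.1 and 1.2. The part of Sertoli cells in these levels was not tested.

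Among bHLH partners and inhibitors (12 of 36 in the table) 1 was called higher and 2 lower of 10 in A1 against Aal (median 0.15), 0 in A3 against A1 (median 0.07), and 2 higher and 1 lower in A3 against Aal (median 0.06). *Ascl2*, a bHLH factor, rose from 5.24 FPKM to 17.0 ± 1.72 (SD, n = 3) at A1 (log2 fold change 1.52, limma adjusted p = 0.000173) and stood at 18.5 in A3. *Id2*, an inhibitor of bHLH factors, stood at 1.12 ± 0.392 FPKM in the 2 Aal libraries and rose to 15.5 ± 3.53 in the 3 A3 libraries (SD; log2 fold change 2.95, limma adjusted p = 2.38e-05). It stood at 2.61, 3.6 and 7.79 FPKM in A1-1, A1-2 and A1-3, highest in A1-3 as the Sertoli sum was. Within A3 it was lowest in A3-1 (11.5 FPKM), where the Sertoli sum was highest. The part of Sertoli cells in its level was not tested. *Tcf3*, a broadly expressed bHLH partner, was not called, at means of 87.2, 93 and 98.8 FPKM.

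Of the list of CITED genes and factors that work with them 8 of 18 were in the table, all of them partners and none another CITED gene. Of these, 3 of 8 were called lower in A1 against Aal (median -0.17), 0 of 6 were called in A3 against A1 (median -0.13) and 3 of 8 were called lower in A3 against Aal (median -0.27). *Tfap2c*, an AP-2 factor, fell from 16.5 ± 0.958 FPKM (SD, n = 2) to 5.03 ± 0.278 (SD, n = 3), by 1.53 on the log2 scale (limma adjusted p = 0.000173). The estrogen receptor genes *Esr1* (-1.55, limma adjusted p = 0.000245) and *Esr2* (-1.02, limma adjusted p = 0.000979) fell from low levels of 3.07 and 1.34 FPKM. *Esr1* overlaps SNORD88 on the other strand and *Esr2* overlaps Gm7862 on the same strand. *Crebbp*, which encodes CBP, was not called, at means of 60.5, 56.7 and 50.7 FPKM.

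Of the oocyte genes of the SOHLH and NOBOX axis (7 of 31 in the table) 0 were called higher and 1 lower of 6 in A1 against Aal (median 0.19), 0 in A3 against A1 (median 0.13), and 2 higher and 2 lower in A3 against Aal (median 0.33). *H1foo*, an oocyte linker histone, rose from 0.537 to 2.46 FPKM (1.15, limma adjusted p = 0.000851). *Pou5f1*, a pluripotency factor, fell from 24.6 to 7.07 FPKM (-1.67, limma adjusted p = 1.46e-05). *Kitl* was higher by 1.02 (limma adjusted p = 0.00163) and is also a Sertoli cell marker, with 4.2 FPKM in A1-3 against 0.7 and 1.0 in the other A1 libraries.

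**Figure D4:**
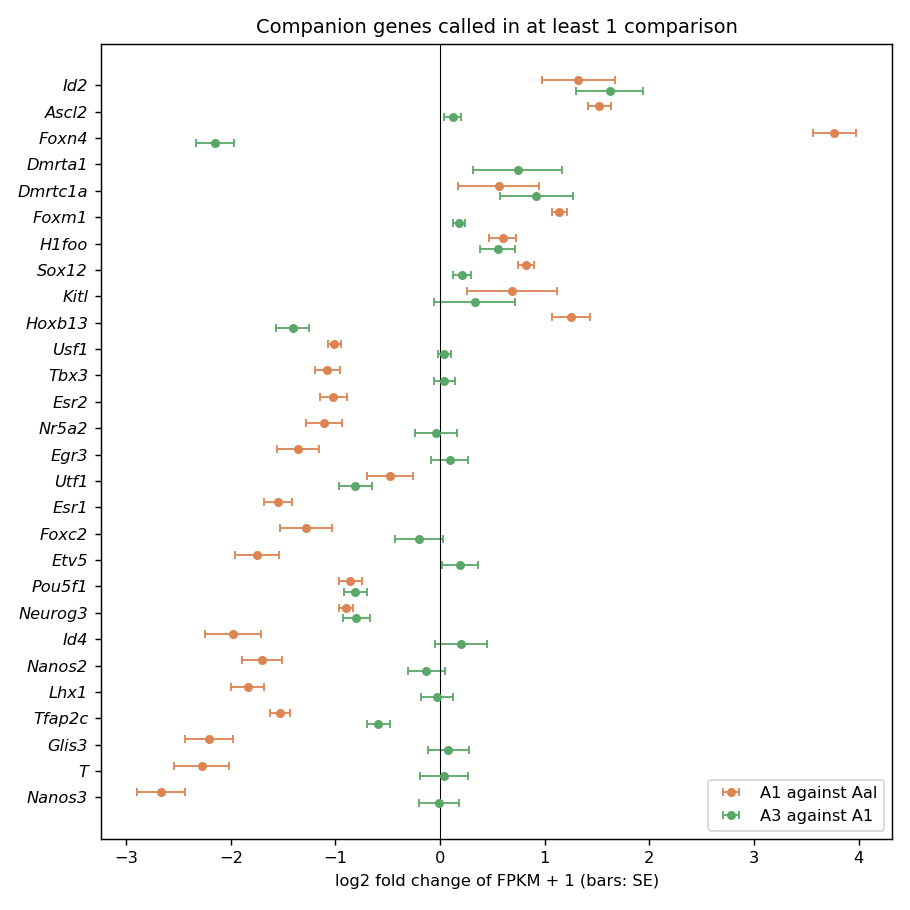
Log2 fold change of FPKM + 1 (horizontal axis, bars for SE) in A1 against Aal (orange) and A3 against A1 (green) for the 28 listed genes called in at least 1 comparison, with a missing point where a gene was not tested. Most of the falls are in the earlier step, down to -2.67 for *Nanos3*, and *Foxn4* and *Hoxb13*, listed with their changes known, have steps of opposite sign.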

How the data were processed

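RNA was taken from sorted germ cells in 2 or 3 cell preparations per group. Libraries were made with a stranded mRNA kit and read as single ends. The authors trimmed adapters with cutadapt 1.9, aligned to mm9 with STAR 2.5.2b and assigned reads to genes with featureCounts, and deposited FPKM values with 1 column per library. The annotation, the use of strand and the step to FPKM are not given in the sources used here. Columns of per-sample values left unused numbered 0.

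Genes in the table were found to have been selected in part on the size of the adjacent steps, as given in the results. For that reason the planned ranking of each regulator's share at A1 among all risers was computed but not read, and percentages of genes called hold for the table only. Adjustment of p values over a selected table and the mean-variance trend fitted to it are affected to an unknown degree.

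Values of log2(FPKM + 1) were tested with limma 3.58.1 in R 4.3.3 (lmFit, eBayes with a trend), two-sided, per pair of groups, for genes with at least 1 FPKM in at least 2 libraries, with Benjamini-Hochberg adjustment over all genes tested. Fold changes on this scale understate the change of low genes. Where FPKM values were whole multiples of 1 read, reads and library totals were recovered; this held for 100% of the 5736 genes. The scripts were tested on simulated data. Libraries of 2 or 3 per group limit precision, and p values measure the spread between preparations, which the methods give as independent. The regulators and the lists were chosen with earlier results of these data known. Genes named are the 5 regulators, *Uchl1*, listed genes called in a comparison or given as not called, and the 3 nearest genes per regulator. *Kit*, *Stra8*, *Zbtb16* and *Tcl1* are listed genes named as absent. *Prdm9*, *Sox30*, *Tcf3*, *Crebbp*, *Tbx6*, *Tbx20*, *Pax7* and *Sox3*, not called, were named after their values were seen. Alternatives were another pseudocount, filter and threshold, median-ratio scaling, all 8 libraries in 1 fit, limma voom on recovered reads, a replicate block and leaving out each library.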

Additional observations from a re-analysis of the deposited data

How the results depend on the processing

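The selection of the table on the steps could not be undone by any alternative, since the genes left out are not analysed here. The number of genes called was 424 in A1 against Aal, and 670 with a pseudocount of 0.1 and 731 with voom. It was 69 in A3 against A1, and 152 and 199 with the same settings. It was 823 in A3 against Aal and 538 with a minimum of 5 FPKM. Leaving out 1 library gave 179 (without Aal-2) to 475, 26 (without A3-2) to 111 (without A1-3) and 597 to 878. In A3 against A1 the count was also 32 without A1-2 or without A3-3, and 107 without A3-1.

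Replicate numbers were shared between groups, but same-numbered A1 and A3 libraries did not deviate together (correlations -0.107, 0.022 and -0.323). Deviations from means of so few libraries cannot show whether same-numbered libraries share a litter or a sorting day. With the replicate block 444, 39 and 800 genes were called, and 1 meiotic regulator.

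Meiotic regulators called numbered 0, and 2 with a pseudocount of 0.1, 1 with median-ratio scaling and 2 with voom. DM domain genes called numbered 2, and 0 with a minimum of 5 FPKM and 1 with all 8 libraries in 1 fit. With that minimum, CITED partners went from 3 to 1 and oocyte genes from 4 to 2. Leaving out 1 library gave 10 to 12 undifferentiated, 4 to 5 differentiation, 0 to 2 meiotic, 3 to 5 bHLH, 2 DM domain, 1 (without Aal-1) to 2 T-box, 1 (without Aal-1 or Aal-2) to 3 CITED and 1 (without Aal-2) to 4 oocyte genes.

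Among the regulators, *Nobox* went from 1.92 to 2.49 (pseudocount 0.1) and 2.59 (voom) in A1 against Aal and from 3.26 to 3.93 and 4.03 in A3 against Aal. *Tbx1* went from 3.22 to 4.23 and 4.43, and from 4.26 to 5.31 and 5.52. *Cited1* went from 2.35 to 2.63 (voom), and from 3.93 to 4.22 and 4.26. In FPKM the share at A1 was 33.2% for *Nobox*, 46.0% for *Tbx1* and 28.9% for *Cited1*. Without 1 library *Sohlh2* ran from 1.08 to 1.23, -0.04 to 0.12 and 1.15 to 1.24 in the 3 comparisons, the sign of A3 against A1 turning to -0.04 without A1-1. *Dmrtb1* ran from 0.24 to 2.14, 2.41 to 2.67 and 2.76 to 4.66, *Nobox* from 1.79 to 2.1, 1.16 to 1.47 and 3.22 to 3.29, *Tbx1* from 2.82 to 3.62, 0.83 to 1.22 and 3.85 to 4.66, and *Cited1* from 2.07 to 2.64, 1.5 to 1.65 and 3.64 to 4.21. Shares at A1 ran from 90.2% to 103%, 8.7% to 45.9%, 54.9% to 64.4%, 72.3% to 80.5% and 56.8% to 62.7% in that order. Fits with 1 Aal library assume that it varies like the other group. The cause of these changes was not tested.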

Other observations

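The Aal libraries differed mostly, but not always, in the same direction over the genes that rose. Of the 369 genes called higher in A3 against Aal, 280 (75.9%) were higher in Aal-1 than in Aal-2, with a median log2 ratio of 0.23, and 32 of them were over 2-fold higher in Aal-1 against 6 in Aal-2. Of the 454 genes called lower, 156 (34.4%) were higher in Aal-1, and of all 4687 genes tested 2577 (55.0%) were. Calls and ratios use the same Aal libraries, so these are descriptions. Of the 5 regulators, *Dmrtb1*, *Tbx1*, *Cited1* and *Nobox* were higher in Aal-1 and *Sohlh2* was not.

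Of the 5736 genes in the table, 2375 (41.4%) were flat in both steps by the division of group means at 0.45 on the log2 scale. By the same division 768 (13.4%) rose and then stayed, as *Sohlh2* did, and 369 (6.43%) rose in both steps. The other regulators fell in the last class, but for *Dmrtb1* the size of the earlier step rests on which Aal library is used. Since the table was selected on these steps, the shares are those of the table.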
